A study of Mus musculus with 12 samples.

Results

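Transcripts of 41 genes of glucose metabolism and of the hypoxia response were followed in IMG cells. IMG is a mouse microglial line made to grow without limit, and microglia are the macrophages that reside in brain tissue. The genes were taken by name from the deposited count tables: 42 were listed, 41 were found among 41325 genes, and all 41 passed the filter on low counts. The missing one, Aldoa, is divided in the tables into a pair of entries, and the entry that carries most of its counts is given apart from the 41. The cells were wild type, of the C57Bl6/J strain and of a single passage. They received oAb, fAb or, as the control, a scramble preparation for 8 h, with 4 libraries in each of the 3 groups. The abbreviations stand for forms of amyloid beta, the peptide deposited in plaques in Alzheimer's disease. The series' own text ties fibrillar to oAb and oligomeric to fAb, opposite to how the initials would be read, so neither form is assigned here. All groups are 1 immortalised line in culture, without the neurons and astrocytes that surround microglia in the brain, and nothing in the labels says that replicates were separate cultures. The p-values therefore measure the spread between these libraries, which may be technical.

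Glycolysis splits glucose to pyruvate in the cytosol, and pyruvate is either reduced to lactate and exported or oxidised in mitochondria through pyruvate dehydrogenase and the tricarboxylic acid (TCA) cycle. The pentose phosphate pathway branches off after hexokinase and yields NADPH and ribose. Activated macrophages and microglia are known for high glycolysis, and for making itaconate from a TCA cycle intermediate with the enzyme encoded by Acod1. Hypoxia-inducible factor 1, whose alpha subunit is encoded by Hif1a, is known to activate many glycolytic genes by binding DNA with the core ACGTG or GCGTG.

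Each amyloid beta preparation was compared with scramble, and values for the genes lay close together in the 2 comparisons. In both, the listed transcripts for glucose uptake and phosphorylation, lactate export and itaconate synthesis were higher, as were the 5 listed hypoxia genes. Slc2a3, a glucose transporter gene outside the 41, was lower in both. Further hypoxia genes, described below, went both ways. Transcripts for commitment to glycolysis were higher except Pfkm, which was lower. Of 10 TCA cycle genes, 2 were higher and 4 lower in oAb, and 3 higher and 3 lower in fAb. Gapdh, Eno1 and Pkm did not pass the test. In oAb against scramble 22 of the 41 genes were higher and 6 lower, where 25.2% of all 11033 genes tested were higher and 27.0% lower (52.2% in either direction). In fAb against scramble 23 were higher and 5 lower, where 27.6% of 11074 genes were higher and 28.8% lower (56.3% in either direction). The median log2 fold change of the 41 was 0.43 in oAb and 0.39 in fAb, against -0.07 and -0.04 over all genes tested. A gene was called higher or lower where edgeR's quasi-likelihood test gave a Benjamini-Hochberg adjusted p under 0.05 over all genes. Both comparisons use the same 4 scramble libraries. The genes higher in both numbered 22 and those lower in both 5. Against a tested minimum fold of 1.5, 15 of the 41 were higher and 1 lower in oAb (23.6% of all genes in either direction), and 14 higher and 1 lower in fAb (25.9%). With upper quartile scaling of the libraries 20 of the 41 were higher and 10 lower in oAb, and 19 higher and 12 lower in fAb. The share of all calls that were higher then fell to 34.6% for oAb, against 48.2% with the main scaling, and to 34.3% for fAb, against 48.9%.

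**Figure D1:**
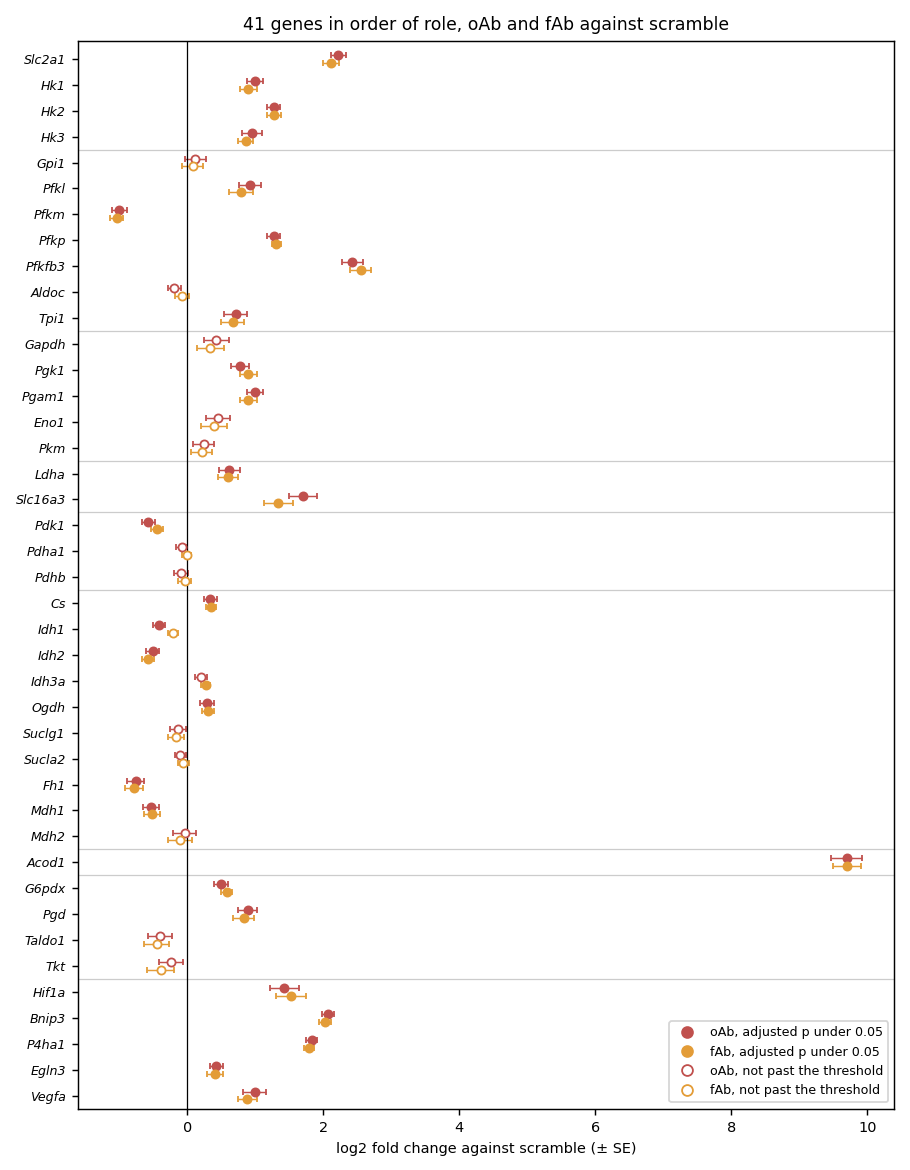
Log2 fold change of the 41 genes in oAb and in fAb against scramble, with the standard error as bars, in order from glucose uptake to the hypoxia genes, with grey lines between role groups. Filled points have an adjusted p under 0.05. The oAb and fAb points of a gene lie close together, and Acod1 lies far to the right at 9.70 in both.

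The sequences from 250 bases before to 50 after the transcription start of 6 genes that were higher in both treatments show where the core ACGTG lies. They were chosen to cover uptake, commitment, lactate, hypoxia and itaconate. For a gene with several listed starts, the window with the most ACGTG matches is shown. The other listed start of Ldha has no ACGTG, and that of Pfkfb3 has 1. Slc2a1 is at chr4:119108495-119108794 (+ strand), Pfkfb3 at chr2:11502041-11502340 (- strand, the more downstream of its listed starts) and Ldha at chr7:46845554-46845853 (+). Bnip3 is at chr7:138909457-138909756 (-), P4ha1 at chr10:59323046-59323345 (+) and Acod1 at chr14:103046762-103047061 (+). All are RefSeq sequences of GRCm38.p6, read 5′ to 3′ on the gene's strand, with ACGTG on either strand, so also its reverse complement CACGT, in capitals.
Slc2a1: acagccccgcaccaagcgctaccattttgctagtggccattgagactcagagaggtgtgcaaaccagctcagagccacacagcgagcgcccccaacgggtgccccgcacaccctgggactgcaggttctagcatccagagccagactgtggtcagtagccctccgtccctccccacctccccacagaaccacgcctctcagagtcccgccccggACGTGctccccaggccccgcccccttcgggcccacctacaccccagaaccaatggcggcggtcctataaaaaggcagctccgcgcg
Pfkfb3: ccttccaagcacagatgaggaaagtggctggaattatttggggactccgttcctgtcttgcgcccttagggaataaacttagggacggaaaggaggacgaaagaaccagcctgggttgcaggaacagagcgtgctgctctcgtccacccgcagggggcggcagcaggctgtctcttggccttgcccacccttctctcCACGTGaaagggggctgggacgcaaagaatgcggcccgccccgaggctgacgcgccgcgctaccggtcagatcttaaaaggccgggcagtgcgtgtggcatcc
Ldha: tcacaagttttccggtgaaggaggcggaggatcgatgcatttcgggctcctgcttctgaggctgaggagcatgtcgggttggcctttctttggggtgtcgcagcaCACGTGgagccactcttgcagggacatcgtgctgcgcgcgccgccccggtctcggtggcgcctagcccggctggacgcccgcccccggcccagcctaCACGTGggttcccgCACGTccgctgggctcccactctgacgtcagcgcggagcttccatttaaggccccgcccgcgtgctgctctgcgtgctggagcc
Bnip3: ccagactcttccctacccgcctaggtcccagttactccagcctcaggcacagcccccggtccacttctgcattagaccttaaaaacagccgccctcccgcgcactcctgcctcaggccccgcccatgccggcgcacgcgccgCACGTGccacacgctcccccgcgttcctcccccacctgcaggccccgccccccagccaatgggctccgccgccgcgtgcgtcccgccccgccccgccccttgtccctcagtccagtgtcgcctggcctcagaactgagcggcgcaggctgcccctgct
P4ha1: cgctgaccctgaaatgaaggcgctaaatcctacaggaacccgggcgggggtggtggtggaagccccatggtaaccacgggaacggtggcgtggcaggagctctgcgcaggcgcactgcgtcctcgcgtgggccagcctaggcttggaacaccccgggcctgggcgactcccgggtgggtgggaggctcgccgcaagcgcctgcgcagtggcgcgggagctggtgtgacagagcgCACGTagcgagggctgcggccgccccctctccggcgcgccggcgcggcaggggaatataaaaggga
Acod1: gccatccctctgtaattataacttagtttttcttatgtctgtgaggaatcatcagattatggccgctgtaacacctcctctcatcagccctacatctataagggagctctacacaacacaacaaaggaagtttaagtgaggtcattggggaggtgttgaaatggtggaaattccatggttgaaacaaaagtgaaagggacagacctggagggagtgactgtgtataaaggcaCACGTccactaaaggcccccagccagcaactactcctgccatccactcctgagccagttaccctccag

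Ldha has 5 overlapping or separate matches in this window, Pfkfb3 and Bnip3 have 2 that overlap in the palindrome CACGTG, and Slc2a1, P4ha1 and Acod1 have 1 each, all of them upstream of the start. Promoter entries were found for 40 of the 41 genes by symbol, and a gene was counted where any of its entries held the motif. ACGTG was present for 17 of the 22 genes higher in both treatments (77.3%), 2 of the 5 lower in both, Mdh1 and Pfkm, and 4 of the other 13 (30.8%), where 30.3% of 8667 tested genes with an entry had it. Among the 22 the genes without it were Cs, Pfkl, Pfkp, Pgd and Tpi1. GCGTG showed no such order: it was present for 59.1% of the 22, 80.0% of the 5 and 76.9% of the 13, and for 57.0% of the tested genes. The palindrome CACGTG was in 7.15% of all 32851 promoters and in 8 of the 62 promoter entries of listed genes (12.9%). These entries belong to 6 genes, Bnip3, Hif1a, Ldha, Ogdh, Pfkfb3 and Pfkm. Both strands were searched for each motif, and CACGTG holds an ACGTG on either strand, so these counts overlap. These matches describe the letters in the window only. Several of the genes are textbook hypoxia-inducible factor targets, so they were not picked without regard to the motif, and genes with several listed starts have more chances of a match.

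Libraries held 13638721 to 18124419 counts and 13449 to 13948 genes with a count. Of 13 microglia and macrophage markers, 10 had at least 1 CPM in every oAb and every fAb library and 11 in every scramble library, Csf1r, Itgam, Cd68 and Cx3cr1 among them. Sall1 had no count, and Tmem119, a marker of microglia in the brain, had none in oAb. The summed level of the 13 was 3469.8 to 3953.6 CPM in oAb, 3298.0 to 3748.7 in fAb and 3593.7 to 4522.7 in scramble. Astrocyte markers summed to under 1 CPM in every library. Neuron markers summed to 10.6 to 12.8 CPM in oAb, 10.0 to 12.3 in fAb and 0.942 to 3.51 in scramble, mostly Map2, with Rbfox3, Snap25 and Syt1 at 0. Oligodendrocyte markers summed to 43.5 to 49.1, 46.1 to 51.6 and 91.1 to 124.8 CPM in oAb, fAb and scramble, mostly Mbp, with Mog and Olig2 at 0. Endothelial markers summed to 19.7 to 26.8, 22.5 to 24.9 and 8.84 to 12.2 CPM in the same order, with Cldn5 at 0. Their main members went opposite ways. Over the libraries of oAb, fAb and scramble, Flt1 had 1228, 1366 and 180 counts, and Vwf 162, 156 and 543. Fibroblast and mural markers summed to 2.77 to 4.21, 2.19 to 3.19 and 0.217 to 0.682 CPM in oAb, fAb and scramble, mostly Dcn in treated libraries, with Pdgfra at 0. The part of these markers in the results was not tested. Scramble replicate 3 stood apart from the other controls: ribosomal protein genes took 10.617% of its counts, against 6.391 to 6.749% in the other scramble libraries. Without it the 41 genes gave 28 higher and 7 lower in oAb, where 31.4% of all genes tested were higher and 32.9% lower, and 27 higher and 7 lower in fAb, where 34.2% were higher and 33.8% lower. The libraries also divide by how counts were shared between Timm23 and its near-identical copy Gm10273: scramble replicates 2, 3 and 4 and oAb replicates 1 and 2 form the Timm23 set, and scramble replicate 1, oAb replicates 3 and 4 and all fAb libraries the Gm10273 set. Within the Timm23 set 16 of the 41 genes were higher and 6 lower in oAb (17.6% and 16.2% of all genes), and the calls of Tpi1 (0.56, adjusted p = 0.13), Ldha (0.51, 0.133), G6pdx (0.38, 0.0763), Cs (0.23, 0.264), Ogdh (0.18, 0.365) and Egln3 (0.44, 0.0659) were lost. Within the Gm10273 set, where the lone scramble library is assumed to vary like the others, 29 were higher and 6 lower in oAb (32.5% and 31.6% of all genes), and 28 higher and 6 lower in fAb (29.9% and 26.4%). With the set as a term, Ogdh lost its call in oAb (adjusted p = 0.064), and Cs, Idh3a, Ogdh, Mdh1 and Egln3 lost theirs in fAb (0.0661 to 0.226). In fAb the treatment effect of that fit rests on scramble replicate 1, the only control in the set of the fAb libraries. Mitochondrially encoded transcripts took 2.73 to 3.37% of counts in oAb, 2.73 to 2.94% in fAb and 4.18 to 4.94% in scramble. Normalised values are CPM, counts relative to library size after TMM scaling over the 12 libraries. In bulk samples fewer cells expressing a gene and less RNA of it per cell cannot be told apart.

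All 4 listed genes of glucose uptake and phosphorylation rose in both treatments. Slc2a1, which encodes the glucose transporter GLUT1, is at chr4:119108711-119137983 in mm10, the build of the files. It had 280.4, 286.3, 245.4 and 278.0 CPM in oAb, 239.7, 216.5, 259.6 and 272.1 in fAb, and 48.5, 57.9, 65.7 and 62.5 in scramble. Every treated library was above every scramble library by a wide margin. Slc2a1 was 4.66-fold higher in oAb (log2 fold change 2.22 ± 0.11, SE, n = 4 against 4, edgeR adjusted p = 3.15e-07). In fAb it was 4.32-fold higher (2.11 ± 0.12, edgeR adjusted p = 8.55e-07).

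The hexokinases trap glucose in the cell by phosphorylating it, and all 3 expressed isoforms were higher in both treatments. Hk2, the inducible isoform, had 217.0, 213.9, 198.8 and 212.3 CPM in oAb, 199.0, 201.9, 211.7 and 211.7 in fAb, and 87.2, 92.5, 73.1 and 96.2 in scramble. Its log2 fold change was 1.27 ± 0.10 in oAb and 1.28 ± 0.10 in fAb (edgeR adjusted p = 6.17e-06 and 4.63e-06). Hk1, the broadly expressed isoform, had 239.9, 247.1, 236.3 and 255.3 CPM in oAb, 199.5, 201.4, 247.9 and 239.6 in fAb, and 98.6, 115.1, 140.0 and 135.1 in scramble. The groups did not overlap, with log2 fold changes of 1.0 ± 0.12 in oAb and 0.90 ± 0.13 in fAb (edgeR adjusted p = 8.1e-05 and 0.000401). Hk3, an isoform of myeloid cells, had 228.5, 230.0, 158.5 and 185.9 CPM in oAb, 200.1, 177.9, 179.8 and 178.2 in fAb, and 89.2, 98.9, 120.0 and 108.6 in scramble. Again no treated library reached down to the scramble range, and Hk3 was 1.93-fold higher in oAb and 1.81-fold in fAb (edgeR adjusted p = 0.000465 and 0.000143). On the authors' TPM scale, which is per gene length, Hk3 was the most abundant isoform in every library, with 45.8 ± 3.92% of the hexokinase sum in oAb, 45.2 ± 2.74% in fAb and 49.4 ± 2.58% in scramble (SD, n = 4 each). Hk2 had 29.9 ± 1.78%, 31.2 ± 0.868% and 25.7 ± 3.99% in oAb, fAb and scramble, so the make-up of the family moved little while its members rose.

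**Figure D2:**
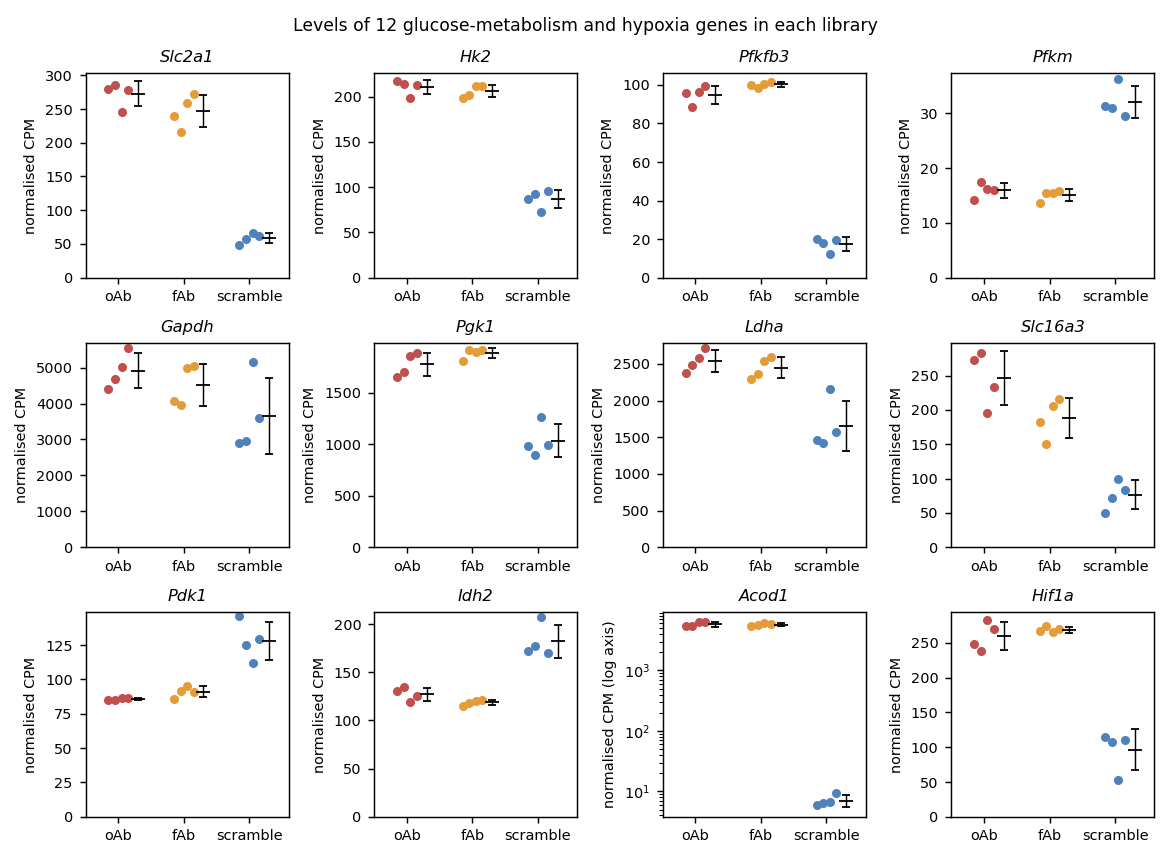
Normalised CPM of 12 genes in every library, with the mean and SD of each group beside the points (n = 4 each) and a log axis for Acod1. Slc2a1, Pfkfb3, Hif1a and Acod1 separate fully from scramble, Pfkm, Pdk1 and Idh2 lie below it, and in Gapdh scramble replicate 3, at 5169.8 CPM, lies among the treated libraries.

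Upper glycolysis was split between isoforms: of 7 genes 4 rose and 1 fell in each treatment, and Gpi1 and Aldoc did not pass. Pfkfb3 makes fructose 2,6-bisphosphate, the strongest activator of phosphofructokinase. It had 96.0, 88.4, 96.1 and 99.2 CPM in oAb, 100.1, 98.6, 100.6 and 101.6 in fAb, and 20.3, 18.1, 12.3 and 19.4 in scramble. That is 5.41-fold higher in oAb (log2 fold change 2.43 ± 0.16, edgeR adjusted p = 1.54e-06) and 5.85-fold higher in fAb (2.55 ± 0.15, 8.55e-07), with no overlap. In TPM Pfkfb3 was the least abundant of the 41 genes in scramble, at 7.18 ± 2.21.

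Phosphofructokinase commits sugar phosphates to glycolysis and is built from liver (Pfkl), platelet (Pfkp) and muscle (Pfkm) type subunits. Pfkp had 233.9, 243.0, 261.3 and 282.4 CPM in oAb, 244.8, 248.2, 269.2 and 265.4 in fAb, and 110.1, 102.4, 107.4 and 105.1 in scramble. It was 2.41-fold higher in oAb and 2.48-fold higher in fAb (edgeR adjusted p = 2.45e-06 and 5.51e-07), and its scramble libraries were close to each other. Pfkl had 314.4, 324.1, 272.4 and 312.5 CPM in oAb, 272.3, 224.6, 291.4 and 300.9 in fAb, and 126.6, 147.8, 217.8 and 155.2 in scramble. Its groups did not overlap, although fAb replicate 2 came within a few CPM of scramble replicate 3; the log2 fold change was 0.92 ± 0.16 in oAb and 0.79 ± 0.17 in fAb (edgeR adjusted p = 0.00102 and 0.00386). Pfkm went the other way, with 14.2, 17.5, 16.2 and 16.1 CPM in oAb, 13.6, 15.5, 15.5 and 15.9 in fAb, and 31.3, 31.0, 36.2 and 29.5 in scramble. It was 2.0-fold lower in oAb (log2 fold change -1.0 ± 0.11) and 2.06-fold lower in fAb (-1.04 ± 0.10), with edgeR adjusted p = 4.82e-05 and 2.66e-05. As a share of the family's TPM, Pfkm was 6.88 ± 0.587% in oAb and 7.06 ± 0.771% in fAb, against 23.1 ± 2.00% in scramble (SD, n = 4 each). Pfkp took 27.4 ± 2.44% and 29.8 ± 1.88% in oAb and fAb, against 19.3 ± 2.84% in scramble. Pfkl was the main subunit throughout, with 65.7 ± 2.71%, 63.1 ± 2.62% and 57.6 ± 4.73% in oAb, fAb and scramble. These shares were not tested.

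**Figure D3:**
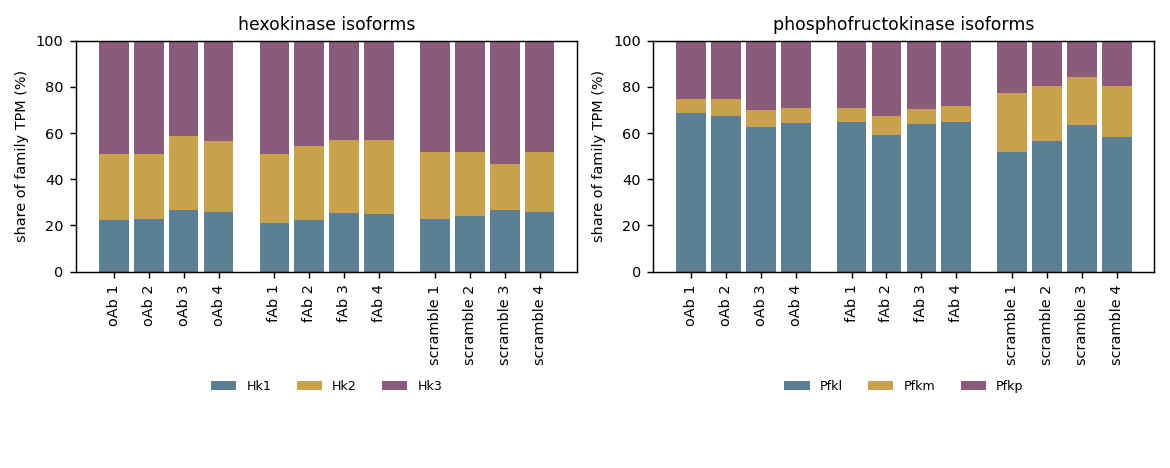
Share of each isoform in the summed TPM of the hexokinases (left) and of the phosphofructokinases (right), 1 bar per library. The Pfkm segment is 6.18 to 8.18% in treated libraries and 21.1 to 25.6% in scramble libraries, while the hexokinase bars change little.

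Triose phosphate isomerase (Tpi1), which interconverts the triose phosphates made when aldolase splits the sugar, rose as well. It had 877.7, 926.8, 972.8 and 1068.5 CPM in oAb, 844.9, 824.8, 992.3 and 985.8 in fAb, and 508.4, 485.4, 805.8 and 555.5 in scramble. Scramble replicate 3 was just under the lowest fAb library, and the log2 fold change was 0.71 ± 0.17 in oAb and 0.67 ± 0.17 in fAb (edgeR adjusted p = 0.00564 and 0.00848). Aldoc, a minor aldolase here, had 88.2, 91.3, 100.2 and 101.2 CPM in oAb, 95.4, 97.1, 104.8 and 104.8 in fAb, and 104.8, 99.2, 125.5 and 105.5 in scramble. Its groups overlapped (edgeR adjusted p = 0.146 and 0.521), and it made up 4.83% of aldolase TPM in oAb, 5.65% in fAb and 7.52% in scramble. The Aldoa entry that carries most of that gene's counts, looked at after its values were seen, averaged 1673.5 ± 89.7 CPM in oAb, 1508.4 ± 192.8 in fAb and 1237.9 ± 367.7 in scramble (SD, n = 4 each; edgeR adjusted p = 0.0755 and 0.202). Phosphoglucose isomerase (Gpi1) had a log2 fold change of 0.12 ± 0.15 in oAb and 0.08 ± 0.15 in fAb (edgeR adjusted p = 0.523 and 0.684), and these turned to -0.05 and -0.11 with upper quartile scaling. Without scramble replicate 3, Gpi1 passed at 0.27 in oAb and 0.24 in fAb (edgeR adjusted p = 0.0184 and 0.0306). Without scramble replicate 1 or 2 its fAb value was -0.01.

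In lower glycolysis Pgk1 and Pgam1 rose in both treatments, while Gapdh, Eno1 and Pkm did not pass in the main edgeR fit with all libraries. Phosphoglycerate kinase (Pgk1), which makes the first ATP of the pathway, had 1657.0, 1704.2, 1859.0 and 1887.0 CPM in oAb, 1810.5, 1913.8, 1900.7 and 1912.5 in fAb, and 981.5, 893.0, 1265.8 and 994.1 in scramble. The groups stayed apart, with log2 fold changes of 0.78 ± 0.13 in oAb and 0.90 ± 0.12 in fAb (edgeR adjusted p = 0.000616 and 0.000202). Phosphoglycerate mutase (Pgam1) had 1396.5, 1432.1, 1264.8 and 1306.7 CPM in oAb, 1156.0, 1199.8, 1278.3 and 1294.4 in fAb, and 577.5, 637.9, 796.7 and 690.7 in scramble. It was 2.0-fold higher in oAb and 1.87-fold in fAb (edgeR adjusted p = 8.37e-05 and 0.000157), again without overlap.

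Gapdh, often used as a reference transcript, had 4410.1, 4692.9, 5012.2 and 5545.0 CPM in oAb, 4061.0, 3950.4, 4994.1 and 5053.7 in fAb, and 2896.9, 2951.9, 5169.8 and 3596.5 in scramble. Of the scramble libraries, 3 lay below every treated library, and replicate 3 lay among the highest. With DESeq2 and all libraries Gapdh passed in oAb (log2 fold change 0.47, DESeq2 adjusted p = 0.0461) but not in fAb. With edgeR and all libraries the log2 fold change was 0.43 ± 0.19 in oAb and 0.34 ± 0.20 in fAb (edgeR adjusted p = 0.0879 and 0.176). Without scramble replicate 3 it was 0.65 and 0.56 (edgeR adjusted p = 0.000368 and 0.00181). Within the Timm23 set, which holds that library, it was 0.23 in oAb (0.552), and against the 1 scramble library of the Gm10273 set it was 0.90 in oAb and 0.70 in fAb. Enolase (Eno1) averaged 3041.9 ± 262.3 CPM in oAb, 2862.3 ± 345.6 in fAb and 2231.3 ± 595.6 in scramble (SD, n = 4 each), with edgeR adjusted p = 0.0583 and 0.0981. In oAb Eno1 passed with DESeq2 (log2 fold change 0.49, DESeq2 adjusted p = 0.0239) and in a fit of all 12 libraries (0.45, edgeR adjusted p = 0.0295). With the replicate block, whose pairing by number is uncertain, it passed in oAb (0.48, edgeR adjusted p = 0.0387) and in fAb (0.42, 0.029). Without scramble replicate 3 it passed in oAb and in fAb at 0.65 and 0.60 (edgeR adjusted p = 0.000138 and 0.000448). Pyruvate kinase (Pkm) averaged 3807.0 ± 152.6 CPM in oAb, 3663.0 ± 295.9 in fAb and 3234.9 ± 682.4 in scramble (edgeR adjusted p = 0.207 and 0.262). Without scramble replicate 3, Pkm passed at 0.39 and 0.37 (0.00164 and 0.00194), while with library sizes alone as the scaling it was -0.01 in oAb and -0.03 in fAb. So all 5 genes of lower glycolysis and 16 of the 18 from uptake to lactate were higher in both treatments when that control was left out, against 2 of 5 and 12 of 18 with it. Counts of Pgk1, Pgam1, Eno1, Pkm and Gapdh are uncertain, because 53.88%, 36.16%, 25.99%, 25.77% and 24.71% of their 50-base words also occur in other genes.

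**Figure D4:**
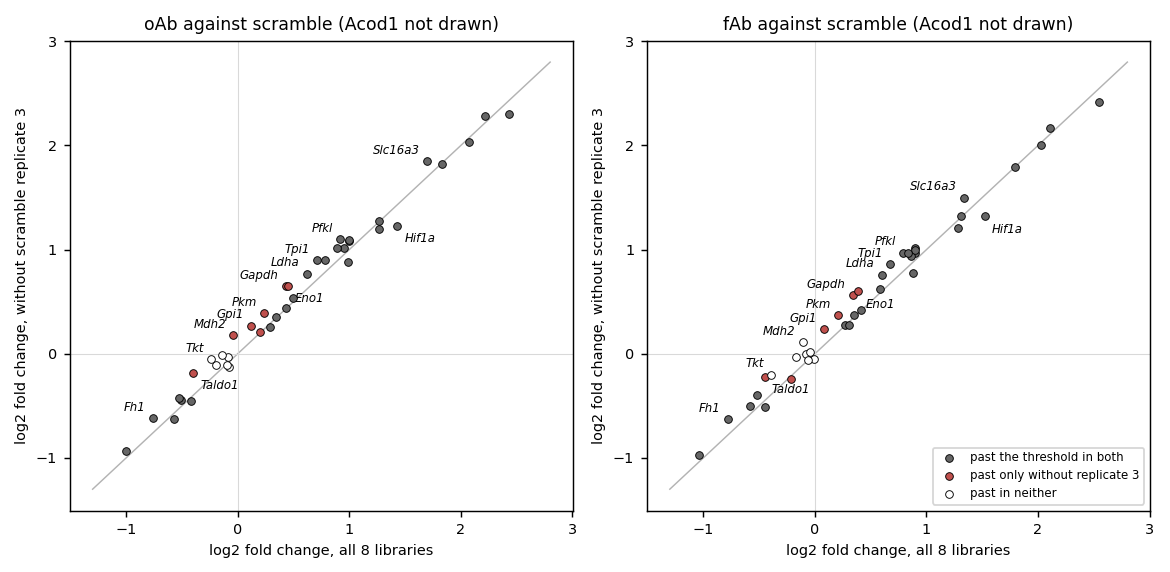
Log2 fold change against scramble with all 8 libraries (x) and without scramble replicate 3 (y), for oAb (left) and fAb (right), with the line of equal values. Red points, Gapdh, Eno1, Pkm and Gpi1 among them, have an adjusted p under 0.05 only without that library, and no gene passed only with it; Acod1, at 9.70 and 9.68, is off the axes.

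Both genes of the lactate branch rose. Ldha, the subunit of lactate dehydrogenase that favours lactate formation, had 2378.1, 2481.6, 2575.4 and 2716.9 CPM in oAb, 2293.2, 2356.0, 2538.9 and 2590.8 in fAb, and 1465.7, 1426.1, 2152.5 and 1570.6 in scramble. Scramble replicate 3 was the nearest control to the treated range, and Ldha was 1.54-fold higher in oAb and 1.52-fold in fAb (edgeR adjusted p = 0.00556 and 0.00663). Slc16a3, which encodes the lactate exporter MCT4, had 272.9, 282.6, 196.1 and 233.5 CPM in oAb, 181.9, 150.2, 206.2 and 216.2 in fAb, and 49.4, 72.4, 99.4 and 83.8 in scramble. It was 3.24-fold higher in oAb (log2 fold change 1.70 ± 0.21, edgeR adjusted p = 0.00012) and 2.53-fold higher in fAb (1.34 ± 0.21, 0.000545), with no overlap against scramble.

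At the entry to mitochondria the catalytic subunits of pyruvate dehydrogenase did not pass and its inhibitory kinase fell. Pdha1 averaged 158.3 ± 7.31 CPM in oAb, 162.8 ± 0.753 in fAb and 168.2 ± 10.6 in scramble, with 95% intervals of the log2 fold change from -0.27 to 0.10 in oAb and from -0.18 to 0.16 in fAb. Pdhb averaged 82.8 ± 2.16, 83.3 ± 1.94 and 88.2 ± 9.94 CPM in oAb, fAb and scramble, with intervals from -0.31 to 0.13 and from -0.26 to 0.17. The groups overlapped for both subunits. Pdk1, the kinase that switches the complex off and a known hypoxia target, had 84.9, 85.1, 86.6 and 86.5 CPM in oAb, 85.6, 91.7, 95.5 and 91.1 in fAb, and 145.8, 124.7, 111.7 and 129.3 in scramble. All treated libraries were below all controls, by a log2 fold change of -0.57 ± 0.10 in oAb and -0.45 ± 0.09 in fAb (edgeR adjusted p = 0.000791 and 0.0026).

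The TCA cycle genes divided: of 10, Cs and Ogdh were higher and Idh1, Idh2, Fh1 and Mdh1 lower in oAb, while Cs, Idh3a and Ogdh were higher and Idh2, Fh1 and Mdh1 lower in fAb. Fh1, fumarate hydratase, had 80.5, 87.9, 89.1 and 88.4 CPM in oAb, 79.9, 85.2, 83.8 and 84.5 in fAb, and 135.1, 132.8, 186.8 and 132.2 in scramble. Scramble replicate 3 was the highest, and the other controls were still far above the treated libraries. The log2 fold change was -0.76 ± 0.13 in oAb and -0.78 ± 0.13 in fAb (edgeR adjusted p = 0.00077 and 0.000688). Mdh1, the cytosolic malate dehydrogenase, had 145.7, 153.2, 172.3 and 167.9 CPM in oAb, 146.9, 158.2, 164.2 and 162.2 in fAb, and 231.4, 204.8, 284.1 and 207.5 in scramble. It was 1.45-fold lower in oAb and 1.43-fold lower in fAb (edgeR adjusted p = 0.0049 and 0.00441). Its mitochondrial counterpart Mdh2 averaged 459.6 ± 8.95, 428.2 ± 22.7 and 472.9 ± 134.6 CPM in oAb, fAb and scramble and did not pass (edgeR adjusted p = 0.868 and 0.629). Scramble replicate 3, at 670.6 CPM, set the spread of Mdh2, and without it the log2 fold change turned to 0.18 in oAb (edgeR adjusted p = 0.0473) and 0.11 in fAb (0.164).

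The isocitrate dehydrogenases moved in different directions. Idh2, the NADP-dependent mitochondrial enzyme, had 130.2, 134.2, 118.9 and 125.6 CPM in oAb, 115.3, 117.9, 120.2 and 121.4 in fAb, and 172.5, 177.4, 207.6 and 170.2 in scramble. All treated libraries were lower, with log2 fold changes of -0.51 ± 0.09 in oAb and -0.58 ± 0.09 in fAb (edgeR adjusted p = 0.00129 and 0.000438). Idh1, the cytosolic NADP-dependent enzyme, had 113.5, 111.2, 126.2 and 128.2 CPM in oAb, 129.7, 138.4, 138.5 and 134.2 in fAb, and 179.6, 158.4, 148.8 and 154.0 in scramble. It passed in oAb (-0.42 ± 0.09, edgeR adjusted p = 0.00475) and just missed in fAb (-0.21 ± 0.08, 0.0538), where it passed without scramble replicate 3 (-0.24, 0.00643). Idh3a, a subunit of the NAD-dependent enzyme that runs the cycle, had 142.9, 141.9, 164.0 and 154.2 CPM in oAb, 153.8, 153.1, 153.4 and 155.5 in fAb, and 138.8, 121.6, 132.2 and 131.8 in scramble. It passed in fAb (0.27 ± 0.07, edgeR adjusted p = 0.0109; 0.0514 without scramble replicate 2) and not in oAb (0.20 ± 0.09, 0.0738; 0.0315 without scramble replicate 3). The other subunits of that enzyme, Idh3b and Idh3g, were lower in both treatments. On the TPM scale Idh3a made up 24.3 ± 1.26% of the 3 genes in oAb and 24.3 ± 0.465% in fAb, against 16.8 ± 0.768% in scramble (SD, n = 4 each). Its own mean TPM was 79.0 in oAb, 85.6 in fAb and 78.4 in scramble. Idh2 made up 40.3 ± 2.85% in oAb and 36.7 ± 0.411% in fAb, against 45.6 ± 3.41% in scramble, and Idh1 35.4%, 39% and 37.6% in oAb, fAb and scramble.

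Citrate synthase (Cs), which opens the cycle, averaged 544.2 ± 49.8, 536.3 ± 28.3 and 431.1 ± 25.3 CPM in oAb, fAb and scramble (edgeR adjusted p = 0.017 and 0.00606). In oAb its adjusted p was 0.0561 without scramble replicate 2, 0.0539 without oAb replicate 3 and 0.0589 without oAb replicate 4. Ogdh, a subunit of oxoglutarate dehydrogenase, averaged 264.1 ± 27.5, 260.8 ± 21.7 and 216.5 ± 17.0 CPM in oAb, fAb and scramble, and 1 oAb library overlapped the controls (edgeR adjusted p = 0.0409 and 0.0174). In oAb the Ogdh call was lost without scramble replicate 1 or 2 and without oAb replicate 2, 3 or 4 (adjusted p from 0.058 to 0.119), and in fAb without scramble replicate 2 or fAb replicate 3 or 4 (0.0537 to 0.0668). The rises of Cs and Ogdh in both treatments and of Idh3a in fAb were not past the threshold with upper quartile scaling. Under that scaling 0 of the 10 genes were higher and 5 lower in oAb, and 0 higher and 6 lower in fAb. It also moved all genes: 19.3% of those tested were then higher and 36.4% lower in oAb, and 20.5% and 39.4% in fAb. The succinyl-CoA ligase subunits Suclg1 and Sucla2 had log2 fold changes between -0.17 and -0.06 and did not pass.

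Acod1 showed the greatest change of the 41 genes. It encodes aconitate decarboxylase, which turns the TCA intermediate cis-aconitate into itaconate, an inhibitor of succinate dehydrogenase, and lies at chr14:103046977-103056573. Acod1 had 5354.7, 5447.1, 6298.5 and 6423.2 CPM in oAb, 5454.7, 5607.9, 6011.4 and 5922.9 in fAb, and 5.87, 6.33, 6.59 and 9.49 in scramble. The scramble values rest on 91 to 153 counts per library, so it was detected in every control. The log2 fold change was 9.70 ± 0.23 in oAb and 9.70 ± 0.21 in fAb, about 833.3-fold and 834.0-fold (edgeR adjusted p = 2.49e-09 and 1.78e-09). By mean TPM Acod1 stood 15th of all genes in oAb and in fAb, at 5957.4 ± 469.7 and 6173.8 ± 121.2, above Gapdh at 3159.8 ± 263.3 and 3067.9 ± 268.0. In scramble it stood 40th of the 41, at 8.17 ± 2.17 TPM.

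Of the 4 listed pentose phosphate genes, the 2 of the oxidative branch were higher and the 2 of the non-oxidative branch did not pass. Further genes, described below, did not keep to these branches. Pgls of the oxidative branch was lower and Rpe of the non-oxidative branch higher in both treatments. G6pdx, glucose-6-phosphate dehydrogenase and the first step of the NADPH-forming branch, had 319.9, 337.6, 386.8 and 395.0 CPM in oAb, 345.9, 366.4, 381.0 and 394.2 in fAb, and 252.9, 234.3, 271.8 and 258.7 in scramble. It was 1.42-fold higher in oAb and 1.5-fold higher in fAb, without overlap (edgeR adjusted p = 0.00231 and 0.000298). Pgd, the second NADPH-forming enzyme, had 842.0, 883.6, 953.4 and 980.8 CPM in oAb, 762.1, 788.2, 934.5 and 955.1 in fAb, and 406.9, 448.8, 625.0 and 498.4 in scramble. Its log2 fold change was 0.89 ± 0.14 in oAb and 0.83 ± 0.15 in fAb (edgeR adjusted p = 0.000549 and 0.00127). Transaldolase (Taldo1) and transketolase (Tkt), which return sugars to glycolysis, did not pass. Taldo1 averaged 311.2 ± 9.23, 293.9 ± 22.0 and 412.4 ± 119.8 CPM in oAb, fAb and scramble (log2 fold change -0.40 ± 0.18 and -0.45 ± 0.18, edgeR adjusted p = 0.0818 and 0.0599). It passed at -0.18 and -0.22 without scramble replicate 3 (0.0386 and 0.0192) and at -0.50 and -0.57 without scramble replicate 1 (0.0364 and 0.0216). Tkt averaged 843.6 ± 53.5, 744.1 ± 107.6 and 999.7 ± 274.6 CPM (edgeR adjusted p = 0.288 and 0.12). In fAb it passed without scramble replicate 1 (-0.54, 0.0248), with upper quartile scaling (-0.58, 0.029), with library sizes only (-0.63, 0.00651) and in a fit of all 12 libraries (-0.43, 0.0431), and in oAb with library sizes only (-0.49, 0.0181). Its direction turned within the Gm10273 set, to 0.22 in oAb and 0.12 in fAb.

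All 5 hypoxia genes rose in both treatments. Hif1a, at chr12:73901375-73947530, had 248.2, 238.0, 282.6 and 270.6 CPM in oAb, 266.9, 275.0, 265.5 and 269.4 in fAb, and 115.4, 107.5, 52.7 and 110.8 in scramble. Scramble replicate 3 was less than every other control, and no control came near a treated library. The log2 fold change was 1.43 ± 0.22 in oAb and 1.52 ± 0.22 in fAb (edgeR adjusted p = 0.000524 and 0.0003), and 1.23 and 1.32 without that library. Bnip3, a mitophagy receptor, had 145.2, 145.5, 149.9 and 152.7 CPM in oAb, 133.3, 141.9, 147.1 and 142.7 in fAb, and 40, 35.3, 32.8 and 33.7 in scramble. It was 4.19-fold higher in oAb and 4.09-fold higher in fAb, with tight groups (edgeR adjusted p = 1.13e-07 and 1.11e-07). P4ha1, a collagen prolyl 4-hydroxylase subunit, had 251.2, 255.4, 265.6 and 262.9 CPM in oAb, 239.9, 245.8, 245.3 and 251.3 in fAb, and 71.2, 72.5, 72.2 and 75.9 in scramble. Its log2 fold change was 1.83 ± 0.08 in oAb and 1.79 ± 0.07 in fAb (edgeR adjusted p = 6.52e-08 and 6.07e-08). Vegfa, the vascular growth factor, averaged 45.8 ± 7.36, 41.4 ± 2.33 and 23.1 ± 4.71 CPM in oAb, fAb and scramble (edgeR adjusted p = 0.00106 and 0.000623). Egln3, the oxygen-sensing prolyl hydroxylase that marks HIF alpha subunits for degradation, rose least, to 23.5 ± 1.08 and 22.6 ± 2.75 CPM in oAb and fAb against 17.4 ± 1.51 in scramble (edgeR adjusted p = 0.00501 and 0.0133). Egln3 missed the threshold in fAb with upper quartile scaling (0.22, 0.11) and in oAb with library sizes only (0.17, 0.187).

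None of the 41 genes passed in fAb against oAb, where 0 of 10878 genes tested passed (0.0%). At an unadjusted p under 0.05 there were 1391 genes (12.8%) and 2 of the 41, Idh1 and Slc16a3; DESeq2 called 18 genes, none of the 41. Slc16a3 had the lowest log2 fold change, -0.39, with a 95% interval from -0.71 to -0.06, and Idh1 the highest, 0.18, from 0.05 to 0.30 (edgeR adjusted p = 0.375 for both). Idh1 was the only one whose fAb and oAb libraries did not overlap, with the fAb libraries above. Among 90 further genes of these pathways, 1 lay fully above and 3 fully below. The share over all genes is not given here, so the separation is not read as a result about Idh1. For 40 of the 41 genes the interval lay within 0.5 either side of 0, and that of Slc16a3 was the exception.

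**Figure D5:**
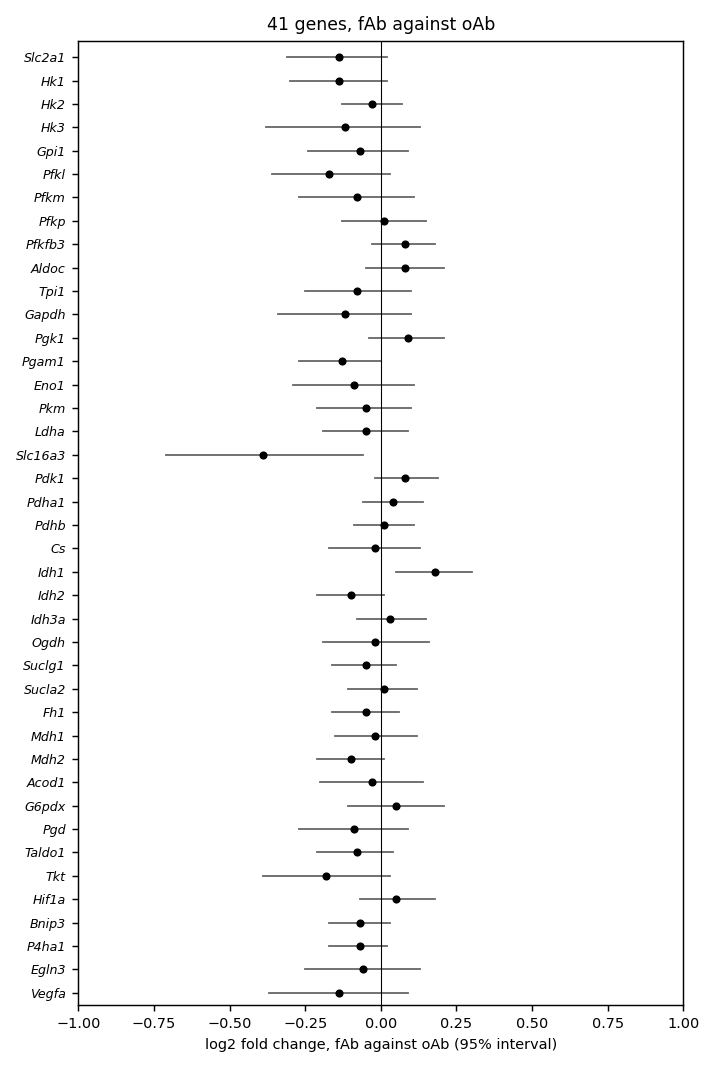
Log2 fold change in fAb against oAb for the 41 genes, with 95% intervals. The points lie between -0.39 (Slc16a3) and 0.18 (Idh1), and only the Slc16a3 interval reaches beyond 0.5 from 0.

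Further genes of the same pathways, listed by name from textbook knowledge, were called in both directions. Of 74 tested, 19 were higher and 21 lower in oAb (median log2 fold change 0.04) and 24 higher and 21 lower in fAb (0.05). Both splits are close to those of all genes tested, of which 25.2% were higher and 27.0% lower in oAb and 27.6% higher and 28.8% lower in fAb. With upper quartile scaling 17 were higher and 27 lower in oAb, and 18 higher and 30 lower in fAb. Over all genes tested the shares were then 19.3% and 36.4% in oAb, and 20.5% and 39.4% in fAb. With library sizes only the counts were 14 and 31 in oAb and 17 and 32 in fAb. The shares of all genes were then 16.1% and 42.6% in oAb, and 17.5% and 43.6% in fAb. Among 17 other glycolysis genes 5 were higher and 6 lower in oAb, and 6 higher and 5 lower in fAb. Slc2a6, a lysosomal hexose transporter, had 359.9 ± 37.4 CPM in oAb, 297.3 ± 56.8 in fAb and 68.3 ± 18 in scramble (log2 fold change 2.40 ± 0.18 and 2.16 ± 0.21). Gpd2, the mitochondrial glycerol-3-phosphate dehydrogenase, had 132.0 ± 13.8, 138.1 ± 4.23 and 41.1 ± 9.24 CPM in oAb, fAb and scramble (1.69 ± 0.17 and 1.79 ± 0.16). Slc16a7, the monocarboxylate transporter MCT2, fell to 2.12 ± 0.508 and 1.94 ± 0.358 CPM in oAb and fAb, against 13.7 ± 3.28 in scramble (-2.68 ± 0.24 and -2.77 ± 0.22), opposite to the exporter Slc16a3.

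Of 10 other genes of pyruvate entry, 2 were higher and 2 lower in oAb, and 4 higher and 2 lower in fAb. Dld, the shared dehydrogenase subunit of pyruvate and oxoglutarate dehydrogenase, rose by 0.42 ± 0.09 in oAb and 0.55 ± 0.08 in fAb on the log2 scale, and Pdk3, another inhibitory kinase, by 0.47 ± 0.11 and 0.44 ± 0.10, against the fall of Pdk1. Mpc2, a subunit of the mitochondrial pyruvate carrier, was lower by a log2 fold change of -0.80 ± 0.25 and -1.05 ± 0.24, and Pdpr by -1.31 ± 0.40 and -1.16 ± 0.38. In oAb Mpc2 lost its call without oAb replicate 3 or 4, and Pdpr without scramble replicate 4 or oAb replicate 1, 2 or 3. In fAb Pdpr lost it with any library other than scramble replicate 3 left out, and with the replicate block (-0.99, adjusted p = 0.0576). Among 17 other TCA cycle genes 2 were higher and 6 lower in oAb, and 3 higher and 5 lower in fAb. Both higher ones in oAb, Me1 and Acly, are cytosolic: malic enzyme (Me1) had 46.6 ± 0.300 CPM in oAb, 50.6 ± 1.60 in fAb and 16.6 ± 1.70 in scramble, and ATP citrate lyase (Acly) 525.8 ± 22.3, 533.7 ± 20.2 and 342.5 ± 53.7. The lower ones in oAb were subunits of succinate dehydrogenase (Sdha, Sdhb, Sdhc), of NAD-dependent isocitrate dehydrogenase (Idh3b, Idh3g) and of succinyl-CoA ligase (Suclg2). Sdhb (-0.49 ± 0.18 in oAb) lost its call without scramble replicate 4 or any 1 oAb library.

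Of 8 other pentose phosphate genes 1 was higher and 3 lower in oAb, and 2 higher and 3 lower in fAb. Shpk, sedoheptulokinase, a carbohydrate kinase-like enzyme known to be reduced in activated macrophages, fell to 1.26 ± 0.467 and 1.21 ± 0.252 CPM in oAb and fAb, against 3.21 ± 0.507 in scramble (log2 fold change -1.34 ± 0.27 and -1.35 ± 0.21). Rpe, ribulose-phosphate epimerase, rose by 0.70 ± 0.12 and 0.76 ± 0.11, and Pgls, the lactonase between G6pdx and Pgd, was lower (-1.05 ± 0.36 and -1.55 ± 0.35), with -0.63 and an adjusted p of 0.113 in oAb without scramble replicate 3. In oAb Pgls also lost its call without scramble replicate 2 or 4 or oAb replicate 1, 3 or 4. With the library set as a term, the fAb calls of Pgls (-0.46, adjusted p = 0.375), Mpc2 (-0.34, 0.366), Sdhb (-0.26, 0.494), Pdpr (-1.56, 0.0526), Pdk3 (0.42, 0.0861) and Acly (0.56, 0.0569) were lost. These fAb values rest on scramble replicate 1, the only control in the set of the fAb libraries. Of 22 other hypoxia genes 9 were higher and 4 lower in oAb, and 9 higher and 6 lower in fAb. P4ha2, the partner isoform of P4ha1, was 6.32-fold higher in oAb and 6.71-fold in fAb. Epas1, which encodes the alternative subunit HIF-2 alpha, moved opposite to Hif1a, to 0.896 ± 0.247 and 0.795 ± 0.0416 CPM in oAb and fAb against 7.25 ± 1.28 in scramble (log2 fold change -3.0 ± 0.23 and -3.14 ± 0.18). Vhl, Plod2, Ero1l, Adm, Bhlhe40, Ak4 and Siah2 also rose in both treatments. Ndrg1 and Mxi1 fell in both, Bnip3l fell in oAb, and Egln2, Ankrd37 and Ddit4 fell in fAb.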

How the data were processed

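Per the labels' protocols, stranded mRNA libraries were prepared from 2 ug of RNA. Per the file headers, reads were trimmed and counted per gene. The build is mm10 (submitters' processing notes), while aligner, counter and strand setting are not given in any source used. The authors deposited whole-number counts, RPKM and TPM for each library in 2 tables with identical control counts. TPM and the gene lengths implied by RPKM and counts were used only for isoform shares and the order of levels.

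Counts were tested with edgeR 4.0.16 (R 4.3.3) on the 8 libraries of each comparison over all genes: filterByExpr with a minimum count of 10, TMM, robust quasi-likelihood F test, two-sided, Benjamini-Hochberg adjustment, threshold 0.05. Standard errors are the log2 fold change divided by the root of F. Totals of 13638721 to 18124419 counts set the precision. The fits were checked on simulated counts. No libraries were duplicates: within groups, chi-square per degree of freedom was 2.973 to 143.199.

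The genes and lists were chosen with earlier results of these data known. Every library's value is given for the 4 isoform families, Acod1, Hif1a, Gapdh, Slc2a1 and the 2 genes of each role with the greatest change past the threshold; of each further list the 3 with the greatest change and a mean of at least 2 CPM are named. A gene that this rule names is not reported here. Tpi1 was added after its values were seen.

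Deviations of same-numbered fAb and scramble libraries correlated at 0.194 to 0.333, all above the minimum of 0.1 set for pairing. For fAb replicates 1, 2 and 4 a scramble library of another number correlated more, so pairing by number is uncertain. Alternatives were DESeq2 1.42.0, other scalings, no filter, the replicate block, all 12 libraries in 1 fit, a 1.5-fold minimum, the library sets, summed copies and leaving out each library; scaling by library sizes only was added after seeing the data. Copies were found as shared 50-base words of GENCODE M21 transcripts, and promoters are RefSeq entries.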

Additional observations from a re-analysis of the deposited data

Results flagged for a closer look

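In 5 of 78 groups of 4 libraries, the highest or lowest library lay further from the others than Dixon's 95% criterion allows; chance flags about 1 in 20 groups. Hif1a in scramble replicate 3 was 52.7 CPM, with the other controls between 107.5 and 115.4. Fh1 in scramble replicate 3 was 186.8 CPM, with the others between 132.2 and 135.1. Fh1 in oAb replicate 1 was 80.5 CPM, with the others between 87.9 and 89.1. Hk3 in fAb replicate 1 was 200.1 CPM, with the others between 177.9 and 179.8. Pgk1 in fAb replicate 1 was 1810.5 CPM, with the others between 1900.7 and 1913.8. Hif1a and Fh1 kept their direction and their call against scramble with each of these libraries left out.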

How the results depend on the processing

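Leaving out a single library gave 20 to 28 genes of the 41 higher and 6 to 7 lower in oAb, and 21 to 27 higher and 5 to 7 lower in fAb; over all genes it gave 2456 to 3503 higher and 2506 to 3671 lower in oAb, 2663 to 3819 higher and 2806 to 3779 lower in fAb, and 0 in fAb against oAb. Scaling mattered most for the genes called lower: upper quartile scaling gave 10 of the 41 in oAb and 12 in fAb, and library sizes only 13 and 14. The median of all genes then moved to -0.24 and -0.34 in oAb (main -0.07) and to -0.23 and -0.30 in fAb (main -0.04). With library sizes only, 1780 genes were higher and 4700 lower in oAb, and 1943 and 4824 in fAb. A tested minimum fold of 1.5 left 1 of the 41 lower in oAb, 14 higher and 1 lower in fAb, and over all genes 1326 higher and 1278 lower in oAb and 1426 and 1437 in fAb. All 12 libraries in 1 fit gave 8 of the 41 lower in fAb. The libraries fall into sets by the share of Timm23 in the counts of Timm23 plus Gm10273. All fAb libraries are in the Gm10273 set, where scramble replicate 1 is the only control. In fAb, fits with the set as a term rest on that control. Within the Timm23 set 1816 genes were lower in oAb, and with the set as a term 2020 were higher and 1824 lower in fAb. DESeq2 called 4 genes higher and 14 lower in fAb against oAb. Under the alternatives run, directions turned only in genes that did not pass in the main fit. A turned value could itself pass, as for Mdh2 in oAb without scramble replicate 3 (edgeR adjusted p = 0.0473). Gpi1 turned in oAb to -0.05 (upper quartile), -0.13 (library sizes only) and -0.03 (within the Timm23 set), and in fAb to -0.11, -0.17 (library sizes only) and -0.01 (without scramble replicate 1 or 2; -0.01 to 0.24 over single libraries left out). With library sizes only Pkm was -0.01 and -0.03 and Idh3a -0.06 in oAb. Mdh2 turned in oAb to 0.00 (replicate block), 0.02 (set as a term), 0.35 (within the Gm10273 set, which holds 1 scramble library) and 0.18 (without scramble replicate 3), and in fAb to 0.26, 0.27 and 0.11 under the last 3; leaving out single libraries gave -0.14 to 0.18 in oAb and -0.22 to 0.11 in fAb. Tkt turned to 0.22 in oAb within the Gm10273 set, and in fAb to 0.11 with the set as a term and 0.12 within the set. In fAb Aldoc became 0.00 within the set and without scramble replicate 3 (-0.14 to 0.00 over single libraries), Pdhb 0.02 without scramble replicate 3 (-0.10 to 0.02), and Pdha1 0.00 to 0.01 with DESeq2 or its size factors or without scramble replicate 4, fAb replicate 3 or fAb replicate 4. In fAb against oAb, directions were followed only for the genes of the 41 with the greatest change, Slc16a3, Tkt, Idh1, Pfkl and Vegfa. Of these, Vegfa became 0.07 with the set as a term and 0.08 within the set. The causes were not tested. Same-numbered libraries correlated at -0.302 to 0.107 in oAb and scramble and -0.331 to 0.407 in fAb and oAb, so these share only a number. In oAb against scramble the replicate block let Eno1 pass (0.48, adjusted p = 0.0387) and lost Ogdh (0.0706). In fAb it changed the call of Eno1 and of no other gene of the 41. Summing near-identical copies changed no call of the 41, but only Eno1, Gapdh and Hif1a had copies with counts to sum. The copies found for Pgk1, Pgam1 and Pkm have no counts here, so the sum could not test those genes. The 4 libraries a group, and the spread of scramble replicate 3, limit the precision of the most abundant glycolytic genes.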
